A study of Homo sapiens with 6 samples.

Results

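The genes described here are 10 lung lineage genes: the transcription factors NKX2-1, FOXA1, FOXA2 and SOX2, the surfactant protein genes SFTPB, SFTPC and SFTPD, the type 2 cell protease gene NAPSA, and the alveolar type 1 genes AQP5 and CAV1. They were chosen by name, and all 10 were matched to Ensembl identifiers among 50868 listed genes. The samples carried the label A549 (a line derived from a human lung adenocarcinoma) and were grown in RPMI medium with fetal bovine serum. They had been transfected with an siRNA against SF3B4 (3 libraries) or with a scramble control siRNA (3 libraries). SF3B4 belongs to the SF3b complex, which as a component of the U2 snRNP helps to recognise the intron branch point. The genotype label of the first group names a knockdown of SF3B4 in replicate 1, of SF3B5 in replicate 2 and of SF3B6 in replicate 3, while titles and treatment labels name SF3B4 in all 3 and were followed. The control libraries are labelled wild type. The titles call the replicates biological. The siRNA sequence, dose and time, and whether replicates were separate cultures, were not given in the sources used here, so the p-values reflect the spread among these 6 samples alone, which may be technical.

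In lung development, NKX2-1 marks the endoderm that becomes lung and thyroid epithelium, and the forkhead proteins FOXA1 and FOXA2 open chromatin at endodermal genes and act with it on surfactant promoters. SOX2 marks the proximal airway. In the mature alveolus, type 2 cells secrete surfactant, with the hydrophobic proteins SP-B and SP-C and the collectin SP-D, while flat type 1 cells express the water channel AQP5 and caveolin 1. Lung adenocarcinomas are often recognised by NKX2-1 and by napsin A, the product of NAPSA.

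Expression was measured by RNA-seq and deposited as FPKM, a fragment count divided by the length of the transcript and the depth of the library. The smallest steps of FPKM in single-exon genes implied 17511125 to 18529764 fragments per library. Depletion of the target was seen in every library, where SF3B4 stood at 17.7 to 22.3 FPKM, against 88.6 to 93.8 FPKM in controls. The 9685 genes that reached 1 FPKM in 3 or more libraries entered a limma test on log2(FPKM + 0.1), and a call is an adjusted p (Benjamini-Hochberg over all tested genes) under 0.05. By this rule 34.1% of tested genes were called, 16.0% higher and 18.1% lower, with a median log2 fold change of -0.0035 over all of them. The groups did not overlap in 49.5%. In bulk RNA, fewer cells of a type and less RNA per cell cannot be told apart.

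The label was set against marker genes before the results. In the tables, the column headers bear a different name, that of the lung line H1650. All 8 epithelial genes examined had a mean of at least 1 FPKM in the control libraries, keratin 19 (KRT19) highest at 644 ± 39.7 FPKM after SF3B4 siRNA and 643 ± 68.2 FPKM in controls (SD, n = 3 each). Of the 7 tested, CDH1 (E-cadherin) and EPCAM rose, a share of 28.6%, against 34.1% of all tested genes. KRT7, KRT8, KRT18, KRT19 and CLDN7 did not pass. CDH1 was at 75.0 ± 12.1 FPKM after SF3B4 siRNA and 41.2 ± 7.75 FPKM in controls (limma adjusted p = 0.0080), and kept its call in 17 of 17 alternatives. EPCAM was at 27.2 ± 1.51 FPKM after SF3B4 siRNA and 21.3 ± 3.47 FPKM in controls (limma adjusted p = 0.049). That call was lost in 10 of 17 alternatives, among them those without any 1 of the SF3B4 siRNA replicates (0.074 to 0.14) and without control replicate 2 (0.12) or 3 (0.11). CLDN4, a tight junction gene below the filter, was at 0.111, 0.627 and 0.311 FPKM after SF3B4 siRNA, against 3.23, 0.739 and 3.49 FPKM in controls. FOXA1 and FOXA2, which A549 cells are known to express, were at or near 0, as described below. Of 15 other genes typical of A549, 10 had a control mean below 1 FPKM, and 7 stayed below 0.1 FPKM in every library, among them the fibrinogen genes FGA, FGB and FGG and the dehydrogenase gene ALDH1A1. NQO1 of that list was abundant, with a mean of 159 FPKM after SF3B4 siRNA and 174 FPKM in controls. Markers of other cells were mostly low: PTPRC, LYZ and KDR were at 0 in all 6 libraries, and of the immune, fibroblast and endothelial lists 5 of 7, 4 of 6 and 4 of 6 genes stayed below 0.1 FPKM everywhere. The exceptions were CD68 and CD14 (immune list), COL1A1 and COL3A1 (fibroblast list), and PECAM1 and TEK (endothelial list). Summed over each list, the immune genes came to 31.5 to 34.8 FPKM after SF3B4 siRNA and 24.8 to 33.1 FPKM in controls, the fibroblast genes to 2.90 to 3.17 FPKM and 2.12 to 2.27 FPKM in these groups, and the endothelial genes to 0.421 to 0.556 FPKM and 0.468 to 0.532 FPKM. Most of the immune sum was CD68, at 27.0 ± 1.16 FPKM after SF3B4 siRNA and 26.7 ± 4.15 FPKM in controls. COL1A1 rose (2.27 ± 0.0568 FPKM after SF3B4 siRNA, 1.33 ± 0.103 FPKM in controls, SD, n = 3 each, log2 fold change 0.73, limma adjusted p = 0.0023). The part of these genes in the results was not tested.

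Sequences of the genes on which the results turn come first. The promoters of the 2 members that changed, SFTPD (which rose) and CAV1 (which fell), and that of FOXA1, the forkhead factor that stayed near 0, are shown 5' to 3' from 250 bases before to 50 bases after the start site. They are from RefSeq, build GRCh38.p14, with motif matches in capitals. The SFTPD window is chr10:79949056-79949355 on the minus strand, at a start that lies inside the longer GENCODE gene, the CAV1 window chr7:116524759-116525058 on the plus strand (the most upstream of 3 starts in that table), and the FOXA1 window chr14:37595200-37595499 on the minus strand.
SFTPD: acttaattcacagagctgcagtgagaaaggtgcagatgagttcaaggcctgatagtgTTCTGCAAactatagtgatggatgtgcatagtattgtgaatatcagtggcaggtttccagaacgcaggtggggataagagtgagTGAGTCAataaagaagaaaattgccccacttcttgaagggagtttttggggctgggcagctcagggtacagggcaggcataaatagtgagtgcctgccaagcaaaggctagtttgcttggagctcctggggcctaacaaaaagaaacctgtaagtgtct
CAV1: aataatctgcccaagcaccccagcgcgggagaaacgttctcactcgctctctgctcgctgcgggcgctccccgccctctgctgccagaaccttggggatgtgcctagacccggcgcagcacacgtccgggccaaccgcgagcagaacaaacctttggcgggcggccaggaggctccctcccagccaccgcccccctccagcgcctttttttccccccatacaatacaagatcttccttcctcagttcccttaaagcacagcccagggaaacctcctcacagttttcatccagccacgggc
FOXA1: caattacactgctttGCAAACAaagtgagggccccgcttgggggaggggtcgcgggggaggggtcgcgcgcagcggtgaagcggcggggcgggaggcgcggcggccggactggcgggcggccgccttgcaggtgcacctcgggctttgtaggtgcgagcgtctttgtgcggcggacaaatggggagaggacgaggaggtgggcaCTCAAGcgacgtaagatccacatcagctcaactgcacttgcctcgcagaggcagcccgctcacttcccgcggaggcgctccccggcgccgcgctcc

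The motifs searched on both strands were TGTTTAC or TGTTTGC (FOXA), CTCAAG (NKX2-1), TTNNGCAA (C/EBP) and TGANTCA (AP-1). The SFTPD window held a C/EBP match beginning at -193 and an AP-1 match beginning at -109 relative to the start site, and none for FOXA or NKX2-1. The FOXA1 window held a FOXA match, on the opposite strand, at -235 and an NKX2-1 match at -46. The CAV1 window held none of the 4. Among 35116 promoters of the same length, 7.17% held the FOXA letters, 12.4% those of NKX2-1, 10.5% those of C/EBP and 7.71% those of AP-1. A match describes the letters only.

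A second sequence feature was the 7-mer GCCTTCA or CCTTCAA in the 3' UTR, known from earlier results on these libraries to be frequent in genes that fell. None of the 10 members, most of them untested, carried either in the 3' UTRs of GENCODE 29, against 20.5% of all 18999 genes searched. Of the 8382 tested genes that could be searched, 20.4% carried one. The share was 35.9% of those that fell and 11.7% of those that rose. Among the other listed genes, COL1A1 and FOXO4 carried a 7-mer and rose. LPCAT1, SOX9, KRT15 and NQO1, among others, carried one and did not pass. Among all 1710 tested genes with a 7-mer, 562 fell, 164 rose and 984 did not pass. Some related genes that fell lacked it, among them ETV5, ETV4, ANXA3, FOXE1, IRX2 and SLPI. The 7-mer also occurred in related genes that fell, namely LAMP3, FOXF2, CEBPA, EHD2, GPRC5A and TUBB4B. The 30-base stretches around it (GENCODE 29, GRCh38, 7-mers in capitals) are shown for the 4 with the largest falls: LAMP3 at chr3:183123754-183123783 (minus strand), FOXF2 at chr6:1395155-1395184 (plus), CEBPA at chr19:33300470-33300499 (minus) and EHD2 at chr19:47742921-47742950 (plus).
LAMP3: agtagaataaGCCTTCAAattataaaccaa
FOXF2: ggatcttcgttGCCTTCAgtaatcagggtg
CEBPA: ttgtactgtatGCCTTCAgcattgcctagg
EHD2: cgctgtttgctGCCTTCAccacatattagt

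Most lung lineage genes were silent or nearly so in both groups. Of the 10 genes, 8 stayed below 0.1 FPKM in every library and were not tested, and 3 were listed at 0 in all 6 libraries. The 2 above that were CAV1 and SFTPD. In controls the order was CAV1, SFTPD, NAPSA, SOX2, FOXA1 and NKX2-1, followed by SFTPB, SFTPC, FOXA2 and AQP5 at 0. The control ranges of CAV1 and SFTPD overlapped with no other member's. That of NAPSA lay above SOX2 but overlapped with FOXA1, SOX2 overlapped with FOXA1, and NKX2-1 overlapped with the genes at 0.

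NKX2-1 (ENSG00000136352, GRCh38 chromosome 14, 36516392 to 36521149) was listed at 0 FPKM in all 3 SF3B4 siRNA libraries, and at 0, 0.00831 and 0.00812 FPKM in the control libraries. On the annotated exonic length of 3165 bases 1 fragment is worth 0.0175 FPKM, so these values are below the worth of 1 whole fragment on that length. The antisense gene NKX2-1-AS1, which covers 12.7% of its exons on the other strand, was at 0 in all 6 libraries. SOX2 (chromosome 3, 181711924 to 181714436), which has a single exon, was at 0.0227, 0 and 0 FPKM after SF3B4 siRNA, against 0.0218, 0.0224 and 0.0219 FPKM in controls. In fragments, that is 1 in a single SF3B4 siRNA library and 1 in each control library.

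The forkhead members were as low. FOXA1 (chromosome 14, 37589984 to 37596059) was at 0.027, 0.0608 and 0 FPKM after SF3B4 siRNA, against 0.0431, 0.00886 and 0.00866 FPKM in controls, with overlapping groups. FOXA2 (chromosome 20, 22581005 to 22585455) was at 0 in all 6 libraries, which at the implied depth allows up to 0.0622 to 0.0658 FPKM per library (the value of 3 fragments, counting error only). The third paralogue, FOXA3, named as a family member, reached 0.107 FPKM in 1 SF3B4 siRNA library and 0.0446 FPKM in 1 control library.

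Among the surfactant genes, SFTPB (chromosome 2, 85657314 to 85668741) and SFTPC (chromosome 8, 22156913 to 22164479), whose products lower surface tension at the air interface, were at 0 in all 6 libraries. The counts of 0 allow up to 0.0394 to 0.0417 FPKM for SFTPB and 0.0508 to 0.0537 FPKM for SFTPC. NAPSA (chromosome 19, 50358477 to 50365830), which encodes an aspartic protease that processes pro-SP-B, was at 0.0778, 0.00752 and 0.0661 FPKM after SF3B4 siRNA and at 0.0448, 0.0383 and 0.03 FPKM in controls. The SF3B4 siRNA values lay on both sides of the controls, and NR1H2, which spans part of the locus on the other strand without sharing exon bases, was expressed at 21.7 to 26.9 FPKM. AQP5 (chromosome 12, 49961870 to 49965681) was at 0.0251, 0 and 0 FPKM after SF3B4 siRNA and at 0 in every control library. For the 8 untested genes the exact two-sided permutation test of mean FPKM gave p = 0.4 for NKX2-1 and SOX2, 0.6 for NAPSA, 0.7 for FOXA1 and 1.0 for the others, where 0.1 is the smallest p that 3 against 3 allows. At a few fragments per library, a fall or a small rise of these genes was not detectable.

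**Figure D1:**
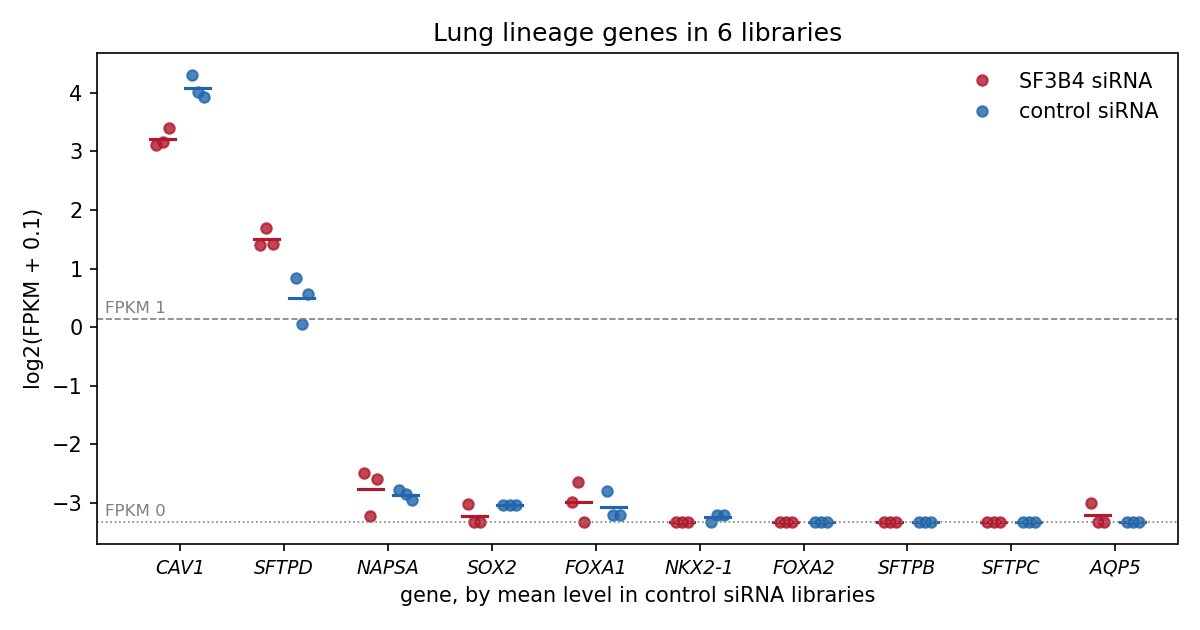
Level of the 10 lung lineage genes, as log2(FPKM + 0.1), in each SF3B4 siRNA library (red) and control siRNA library (blue); short lines are group means, the dotted line is FPKM 0 and the dashed line FPKM 1. CAV1 and SFTPD stand above 0 on this scale, CAV1 lower and SFTPD higher after SF3B4 siRNA, and the other 8 genes lie at or just above FPKM 0 in both groups.

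CAV1 fell after SF3B4 siRNA. The gene encodes caveolin 1, the scaffold of caveolae, the flask-shaped membrane pits that are dense in type 1 alveolar cells (ENSG00000105974, GRCh38 chromosome 7, 116524785 to 116561184, plus strand). It was at 8.55, 8.81 and 10.4 FPKM after SF3B4 siRNA, against 19.6, 16.1 and 15.1 FPKM in the control libraries. All 3 SF3B4 siRNA values lay below the lowest control, and the means were 9.25 ± 0.994 FPKM after SF3B4 siRNA and 16.9 ± 2.34 FPKM in controls (SD, n = 3 each), a ratio of 0.546. On the log2 scale the difference was -0.86 ± 0.12 (SE, limma adjusted p = 0.0017), and the exact permutation test gave p = 0.1, its smallest. On the annotated length CAV1 held about 611 to 786 fragments after SF3B4 siRNA and 1122 to 1458 fragments in controls, and no other annotated gene shared its exons. In controls it ranked 1950 among all listed genes.

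SFTPD rose. Its product, surfactant protein D, is a secreted collectin that binds microbial sugars, and it is also made outside the lung (ENSG00000133661, chromosome 10, 79937740 to 79982614, minus strand). It was at 2.55, 3.15 and 2.57 FPKM after SF3B4 siRNA, against 1.7, 0.934 and 1.39 FPKM in controls. SFTPD thus reached the filter level of 1 FPKM in 3 SF3B4 siRNA libraries and 2 control libraries. The groups did not overlap, and the means of 2.76 ± 0.338 FPKM after SF3B4 siRNA and 1.34 ± 0.385 FPKM in controls (SD, n = 3 each) stood in a ratio of 2.06. On the log2 scale the difference was 1.02 ± 0.21 (SE, limma adjusted p = 0.0080; exact permutation p = 0.1). Only about 59.1 to 75.3 fragments after SF3B4 siRNA and 21.9 to 40.9 fragments in controls lay behind these values. With SF3B4 siRNA replicate 1 alone, the library whose labels all name SF3B4, against the 3 controls, the log2 fold change was 0.92 and its adjusted p 0.12. BMS1P21, on the other strand, shares 5.9% of the SFTPD exon bases and was not analysed here.

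The 2 tested members thus moved in opposite directions, set against the 34.1% of all tested genes that were called. For likeness of pattern, each of 4644 other genes with mean FPKM of at least 5 was centred on its control mean, and its 6 log2 values were compared with those of the member by their root mean square difference. Nearest to CAV1 were TIMM17A (0.0562 on the log2 scale), SPC24 (0.0639) and ERH (0.0726), with log2 fold changes of -0.93, -0.81 and -0.92. Nearest to SFTPD were KIAA1522 (0.155), PERP (0.178) and OXCT1 (0.18), with log2 fold changes of 1.06, 0.86 and 0.90. None of the 6 belongs to the lung lists, but listed genes below that level, such as CAV2, ANXA3 and LAMP3, were not candidates.

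**Figure D2:**
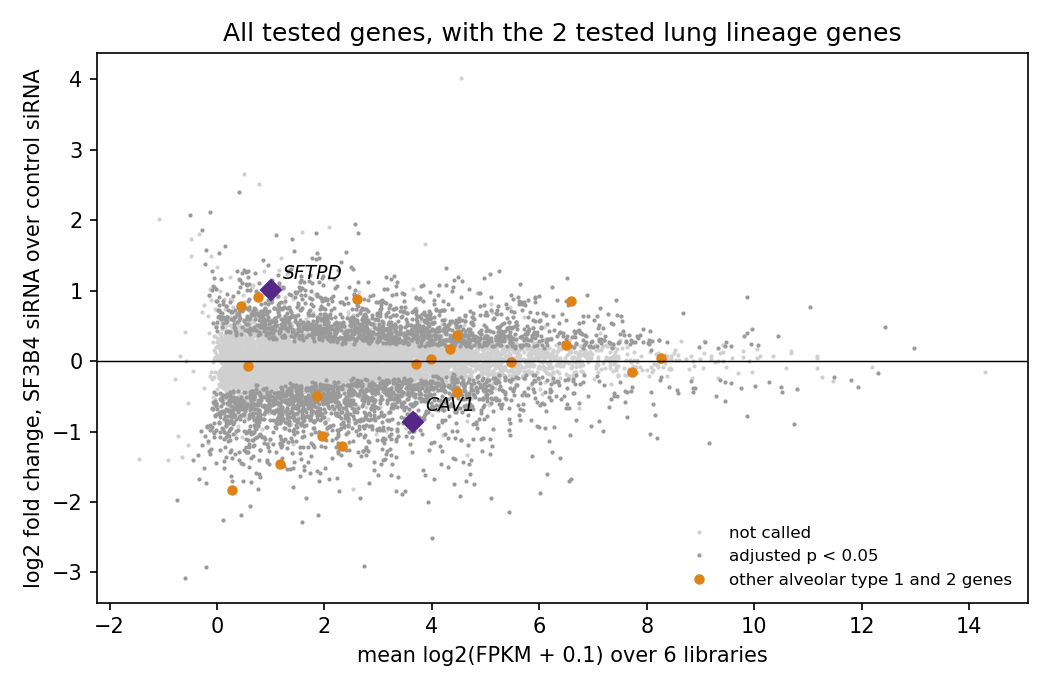
Log2 fold change (SF3B4 siRNA over control siRNA) against mean log2(FPKM + 0.1) for the tested genes, with called genes in darker grey, other tested alveolar type 1 and type 2 genes in orange, and SFTPD and CAV1 as purple diamonds. SFTPD (1.02) and CAV1 (-0.86) lie among many other called genes of similar level.

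Around CAV1, the other parts of the caveolar coat did not move as one. Of 11 caveolar genes 7 were tested, 3 fell (CAV1, CAV2 and EHD2) and 1 rose (PACSIN3), with a median log2 fold change of -0.30. That is 57.1% called, against 34.1% of all tested genes. EHD2, an ATPase that collars the neck of caveolae, was at 64.9, 63 and 68.7 FPKM after SF3B4 siRNA, against 127, 140 and 141 FPKM in controls. Its groups were far apart, with a log2 fold change of -1.05 (limma adjusted p = 9.6e-05), and it carries the 7-mer shown above. CAV2, the partner of caveolin 1 in hetero-oligomers and its neighbour on chromosome 7, was at 2.44, 3.26 and 3.26 FPKM after SF3B4 siRNA and at 4.7, 3.68 and 4.3 FPKM in controls (log2 fold change -0.49, limma adjusted p = 0.036). The CAV2 call was lost in 6 of 16 alternatives, including those without control replicate 1 (adjusted p = 0.10), control replicate 3 (0.094) or SF3B4 siRNA replicate 1 (0.094). CAVIN1, the main coat protein, was the most abundant at 314 ± 8.46 FPKM after SF3B4 siRNA and 304 ± 11.4 FPKM in controls, and its log2 fold change of 0.05 ± 0.05 (SE) did not pass. CAVIN3 (log2 fold change -0.30) and PACSIN2 (-0.06) did not pass either. PACSIN3, a membrane-bending protein, was at 19.4 ± 0.738 FPKM after SF3B4 siRNA and 16.0 ± 0.533 FPKM in controls (adjusted p = 0.017), a call lost without control replicate 3 (0.059) and without SF3B4 siRNA replicate 1 (0.071) or 3 (0.054).

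Type 1 genes went both ways. Of 22 in the list, which holds CAV1 and CAV2, 10 were tested, 4 fell and 2 rose (median log2 fold change -0.03). The calls made up 60% of those tested, against 34.1% of all tested genes. ANXA3, an annexin, was at 2.39, 2.63 and 2.69 FPKM after SF3B4 siRNA and at 5.63, 5.63 and 5.2 FPKM in controls, a log2 fold change of -1.07 (adjusted p = 0.00028). GPRC5A, an orphan receptor abundant in lung epithelium, was at 18.9 ± 1.38 FPKM after SF3B4 siRNA and 25.6 ± 1.59 FPKM in controls (log2 fold change -0.44, adjusted p = 0.0057), and carries a 7-mer. SEMA3E, a secreted semaphorin, was at 1.85, 2.67 and 2.24 FPKM after SF3B4 siRNA against 1.11, 1.21 and 1.11 FPKM in controls (log2 fold change 0.90, adjusted p = 0.0035). GGTLC1 was at 1.70 ± 0.189 FPKM after SF3B4 siRNA and 0.963 ± 0.234 FPKM in controls (log2 fold change 0.78, adjusted p = 0.016), a call lost in 4 of 16 alternatives, among them those without SF3B4 siRNA replicate 2 (0.056) and without the level filter (0.052). GGTLC1 met the filter in 3 SF3B4 siRNA libraries and 1 control library. The classical type 1 markers PDPN and HOPX stayed below 0.1 FPKM, and AGER was at 0.842, 0.727 and 0.819 FPKM after SF3B4 siRNA and 0.685, 0.767 and 0.787 FPKM in controls.

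**Figure D3:**
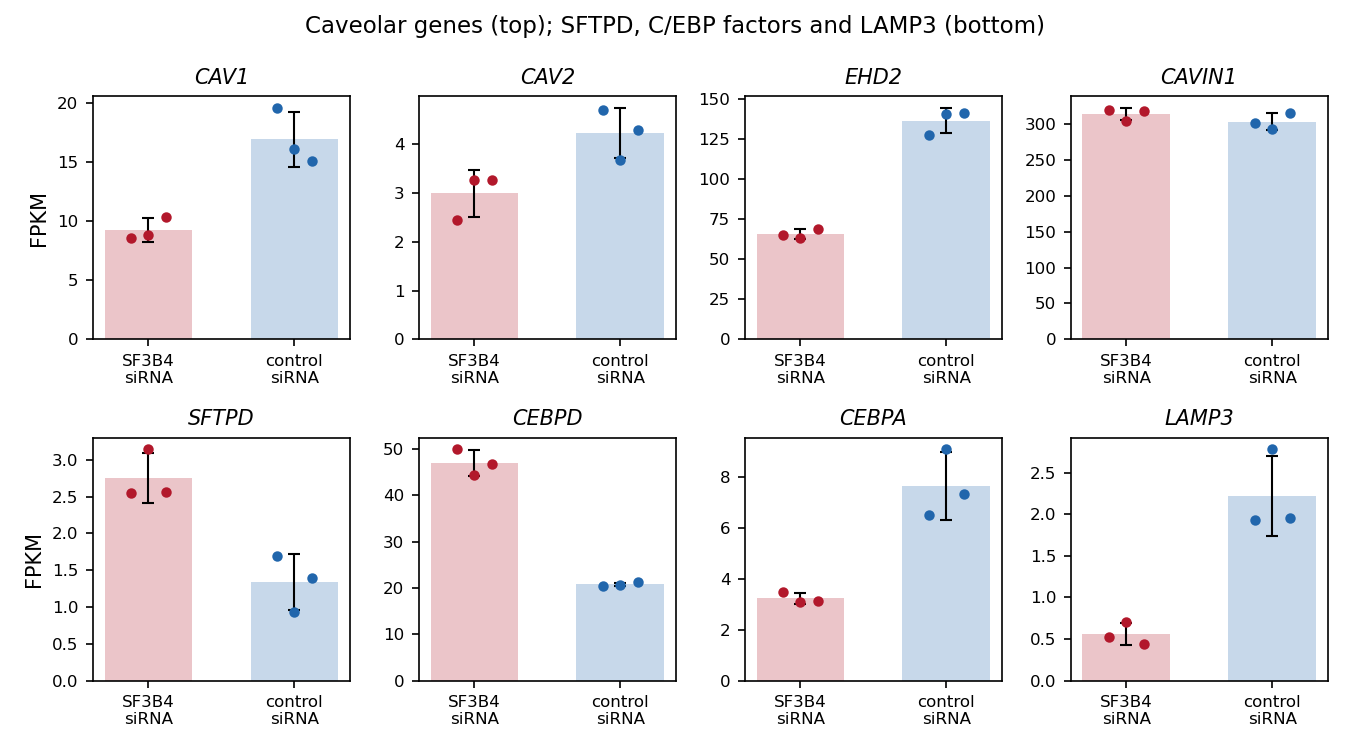
FPKM of CAV1, CAV2, EHD2 and CAVIN1 (top) and of SFTPD, CEBPD, CEBPA and LAMP3 (bottom) in SF3B4 siRNA libraries (red, left) and control siRNA libraries (blue, right); points are libraries, bars means and error bars SD of 3 libraries. CAV1, CAV2, EHD2, CEBPA and LAMP3 are lower after SF3B4 siRNA, SFTPD and CEBPD higher, and CAVIN1 overlaps.

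Around SFTPD, of 24 type 2 genes 11 were tested, 4 rose and 3 fell (median log2 fold change 0.03), and 12 stayed below 0.1 FPKM everywhere. Calls came to 63.6% of the 11, where the share over all tested genes was 34.1%. LAMP3, a lysosomal membrane protein of lamellar bodies, was at 0.525, 0.699 and 0.44 FPKM after SF3B4 siRNA, against 1.93, 2.78 and 1.96 FPKM in controls. This was the largest fall of the list (log2 fold change -1.83, adjusted p = 0.00071), in a gene that met the level filter through its controls alone. CTSH, the cathepsin that trims pro-SP-B and pro-SP-C, was at 25.0 ± 2.03 FPKM after SF3B4 siRNA and 19.3 ± 1.07 FPKM in controls (log2 fold change 0.37, adjusted p = 0.013). The other rises were SFTPD itself, MUC1 and FASN, and the other falls ETV5 and CEBPA. ABCA3, the lipid pump of lamellar bodies, was at 1.37 ± 0.0527 FPKM after SF3B4 siRNA and 1.43 ± 0.0348 FPKM in controls (log2 fold change -0.06). LPCAT1, a phospholipid acyltransferase gene, was at 21.3 ± 0.691 FPKM after SF3B4 siRNA and 18.9 ± 1.32 FPKM in controls (0.18). Neither passed. The collectin genes SFTPA1 and SFTPA2, near-identical copies of each other, reached at most 0.0611 FPKM.

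Of 34 lung and endoderm transcription factors 11 were tested, 3 rose and 4 fell (median log2 fold change 0.18). Thus 63.6% of the 11 were called, beside 34.1% of all tested genes. C/EBP factors, which act on surfactant genes, were split. CEBPD was at 49.9, 44.3 and 46.8 FPKM after SF3B4 siRNA, against 20.5, 20.6 and 21.2 FPKM in controls (log2 fold change 1.18, adjusted p = 8.8e-05). CEBPA, the member of the family active in mature type 2 cells, was at 3.47, 3.08 and 3.12 FPKM after SF3B4 siRNA and at 6.48, 9.07 and 7.32 FPKM in controls (log2 fold change -1.20, adjusted p = 0.00067). Antisense transcripts overlap 25% and 18.3% of the CEBPA exon, at 0 and at no more than 0.571 FPKM. CEBPB, the most abundant, was at 181 ± 3.65 FPKM after SF3B4 siRNA and 154 ± 20.1 FPKM in controls, and its log2 fold change of 0.24 did not pass (adjusted p = 0.090). IRX2, an Iroquois homeobox factor, was at 3.28 ± 0.233 FPKM after SF3B4 siRNA and 5.15 ± 0.141 FPKM in controls (log2 fold change -0.64, adjusted p = 0.0020). The other rises were ELF3 and FOXP4, and the other falls ETV5 and ETV4, the last at 0.495 ± 0.0476 FPKM after SF3B4 siRNA and 1.53 ± 0.241 FPKM in controls, so that it met the level filter through its controls alone. ELF3 was at 33.9 ± 0.426 FPKM after SF3B4 siRNA and 22.4 ± 0.508 FPKM in controls. That value is uncertain, since transcripts on both strands each share 9.23% of the ELF3 exon bases. ELF3-AS1, on the other strand, was at 15.6 to 20.6 FPKM after SF3B4 siRNA and 8.47 to 10.9 FPKM in controls. The transcript on the same strand was at 3.25 to 4.8 FPKM after SF3B4 siRNA and 2 to 2.55 FPKM in controls. SOX9, the distal lung counterpart of SOX2, was at 9.24 ± 0.683 FPKM after SF3B4 siRNA and 9.46 ± 1.41 FPKM in controls (log2 fold change -0.03), with overlapping groups. The endodermal factors GATA6 and HNF4A reached at most 0.264 and 0.00369 FPKM.

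The forkhead family, to which FOXA1 and FOXA2 belong, shares a winged-helix DNA-binding domain. Although the FOXA branch was near 0, 14 of its 44 genes were tested, and 9 were at 0 in all 6 libraries. Of the 14, 4 rose, 3 fell and 7 did not pass, where 16.0% of all tested genes were called higher and 18.1% lower. The median log2 fold change of the 14 was -0.02. FOXM1, a driver of mitotic genes, was the most abundant at 15.2, 12.6 and 16.8 FPKM after SF3B4 siRNA, against 18.8, 18.5 and 19.9 FPKM in controls. The groups did not overlap (log2 fold change -0.37, adjusted p = 0.036), but the call was lost in 9 of 17 alternatives, among them those without SF3B4 siRNA replicate 1 (0.067) or 2 (0.074) and without any 1 of the control replicates (0.065 to 0.10). ITFG2 overlaps 15.9% of the FOXM1 exons on the other strand, at 1.27 to 1.84 FPKM.

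The largest forkhead fall was that of FOXF2, best known from the mesenchyme around gut and lung. It was at 2.01, 1.69 and 1.75 FPKM after SF3B4 siRNA, against 5.69, 6.15 and 5.24 FPKM in controls (log2 fold change -1.60 ± 0.11 SE, adjusted p = 0.00012). It was the 1 fallen forkhead gene with the 7-mer. FOXE1, the thyroid factor whose loss causes thyroid dysgenesis, was at 3.73, 4.77 and 4.18 FPKM after SF3B4 siRNA and at 6.55, 7.51 and 7.41 FPKM in controls (log2 fold change -0.75 ± 0.11 SE, adjusted p = 0.0024). Both falls were kept in every alternative that tested the gene.

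The largest forkhead rise was that of FOXP4, a repressor expressed in airway and alveolar epithelium. It was at 5.19, 4.76 and 4.86 FPKM after SF3B4 siRNA, against 2.78, 2.88 and 3.04 FPKM in controls (log2 fold change 0.75 ± 0.09 SE, adjusted p = 0.00092). FOXP1, its partner in lung, was below the filter at 0.467 ± 0.0369 FPKM after SF3B4 siRNA and 0.583 ± 0.0169 FPKM in controls. FOXO4, a target of AKT signalling, was at 2.07, 2.51 and 2.27 FPKM after SF3B4 siRNA and at 1.51, 1.68 and 1.05 FPKM in controls (log2 fold change 0.67, adjusted p = 0.023). It carries a 7-mer. FOXO6 was at 4.73 ± 0.245 FPKM after SF3B4 siRNA and 3.45 ± 0.506 FPKM in controls (0.45, adjusted p = 0.025). FOXK1, a repressor that links nutrient state to autophagy genes, was at 7.59 ± 0.323 FPKM after SF3B4 siRNA and 5.99 ± 0.0733 FPKM in controls (0.34, adjusted p = 0.014). These 3 calls were less stable: FOXO4 was lost without SF3B4 siRNA replicate 2 (0.074) or 3 (0.058), FOXK1 without replicate 1 (0.059), and FOXO6 without any 1 of the SF3B4 siRNA replicates (0.052 to 0.080) or control replicate 3 (0.061).

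The forkhead genes that did not pass were FOXC1, FOXK2, FOXB1, FOXJ3, FOXO3, FOXJ2 and FOXD1, with log2 fold changes of -0.24 (FOXD1) to 0.41 (FOXC1). Of these, FOXJ2 (6.67 ± 0.128 FPKM after SF3B4 siRNA, 7.48 ± 0.271 FPKM in controls), FOXJ3 and FOXO3 carry a 7-mer. FOXD1, a factor of kidney stroma, was at 6.02, 4.94 and 5.37 FPKM after SF3B4 siRNA, with 5.24, 7.53 and 6.72 FPKM in controls, so its groups overlapped. FOXJ1, the master factor of multiciliated airway cells, stayed below 0.1 FPKM in every library.

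**Figure D4:**
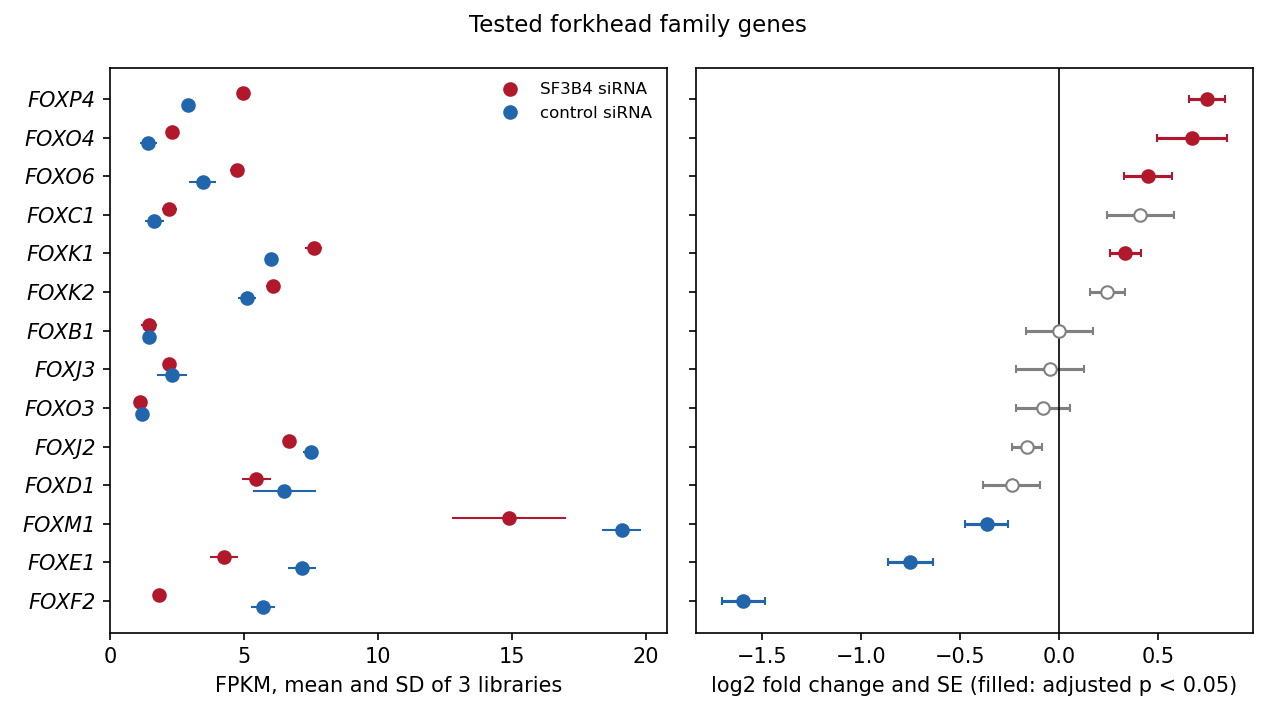
The 14 tested forkhead genes: mean FPKM with SD of 3 libraries per group (left panel, SF3B4 siRNA red above control siRNA blue) and log2 fold change with SE (right panel; filled points have adjusted p under 0.05). FOXF2, FOXE1 and FOXM1 are lower and FOXP4, FOXO4, FOXO6 and FOXK1 higher after SF3B4 siRNA.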

How the data were processed

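The 6 RNA-seq libraries, 3 per group, were grouped and numbered by their titles. For each sample the authors deposited a table of FPKM by gene. The submitters' processing notes name HISAT2 2.0.4, StringTie 1.3.0 and GRCh38, with no role or order; annotation, strand setting and filters were not stated there or elsewhere in the labels. No count test suits FPKM, and fold changes on log2(FPKM + 0.1) understate changes of low genes.

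Symbols were found for 49659 of 50868 identifiers, and 50111 were in GENCODE 29, which gave positions, exonic lengths and 3' UTRs. In single-exon genes FPKM times length moved in steps of 1 fragment. By library, 99.1% to 99.5% of values worth 20 fragments or fewer were whole to a tolerance of 0.02. The implied totals set the fragments quoted, which are approximate for genes with several exons and cover counting error only. Of 176 genes most cells use, the 2 at 0 were the testis and thymus paralogues PSMA8 and PSMB11, so a 0 is not a general failure of estimation.

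Testing used limma 3.58.1 under R 4.3.3 (trend and robust options, two-sided), with Benjamini-Hochberg adjustment over 9685 genes. It was tested on simulated data. The members, lists and 7-mers were chosen with earlier results of these data known. The rule for named genes took all members, SF3B4, tested forkhead genes, genes overlapping a member, the nearest patterns, and from each list up to 6 called genes by size of change and 4 by level. CLDN4, AGER, ABCA3, CAVIN3, FOXP1 and the other genes given as at, near or below 1 FPKM without a test (such as PDPN, HOPX, FOXA3 and GATA6) were named outside it, after their values were seen. Alternatives were other pseudocounts, filters, scalings and test options, a replicate block, and leaving out libraries. No set test was made.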

Additional observations from a re-analysis of the deposited data

How the results depend on the processing

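CAV1 and SFTPD kept their direction in all alternatives that tested them (17 and 16). Leaving out libraries gave log2 fold changes of -0.97 to -0.75 for CAV1 and 0.796 to 1.196 for SFTPD. The SFTPD call was lost in 1 of them, without SF3B4 siRNA replicates 2 and 3 (0.92, adjusted p = 0.12), chosen after seeing the data because their genotype labels name other genes. There the lone library is assumed to vary like the controls. SFTPD was not tested at mean FPKM of at least 5. Counts over all genes, 1546 higher and 1752 lower, were 1027 and 940 at mean FPKM of at least 5, and 420 and 693 with a minimum fold change of 1.2. Scaling turned the balance: 1648 and 1629 with each library rescaled to a common total, 1738 and 1636 with quantile normalization, and 1806 and 1580 with equal medians. Leaving out libraries gave 335 to 1492 higher and 700 to 1604 lower. The 4 forkhead rises became 2 without the filter, 1 at mean FPKM of at least 5, 1 with the minimum fold change, and 1 to 5 when libraries were left out, and the 3 forkhead falls 2 or 3. Of 36 called genes in the lists other than the members, with SF3B4 counted among them, 20 kept their call in every alternative that tested them, and none reversed. With SF3B4 siRNA replicate 1 alone, calls for SEMA3E (adjusted p = 0.091), CTSH (0.089), IRX2 (0.054), GPRC5A (0.050) and COL1A1 (0.070) were also lost. Where a call was lost, the cause was not tested beyond the smaller numbers of genes or samples.

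The labels do not say whether replicate numbers pair the samples, and the values showed no such pairing. Same-numbered libraries had correlations of deviations of -0.08, 0.02 and -0.12. No SF3B4 siRNA library correlated best with its own number, and among the controls replicate 2 alone did. So few libraries cannot exclude a pairing. With the replicate block 1290 genes were higher and 1537 lower, and CAV1 (-0.86, adjusted p = 0.0081) and SFTPD (1.02, adjusted p = 0.023) kept their calls. Depth limits the 8 genes below 0.1 FPKM, where a few fragments decide each value.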

Other observations

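Airway genes were mostly silent, and the few expressed ones were secretory or structural. Of 22 in the list 4 were tested, 2 fell and 0 rose, so that 50% were called, against 34.1% of all tested genes. In every library 16 stayed below 0.1 FPKM, among them TP63 and KRT5 of basal cells. SCGB1A1 of club cells was at 0 in all 6 libraries. In limma without a level filter no gene of the list rose either. SLPI, a secreted antiprotease and the most abundant of the list, was at 774, 714 and 650 FPKM after SF3B4 siRNA, against 1197, 1219 and 1227 FPKM in controls, groups that did not overlap (log2 fold change -0.77, limma adjusted p = 0.00031). TUBB4B, a tubulin of cilia and dividing cells, was at 224 ± 7.36 FPKM after SF3B4 siRNA and 342 ± 14.8 FPKM in controls (SD, n = 3 each; log2 fold change -0.61, limma adjusted p = 0.00039). LCN2, at 7.59 ± 0.535 FPKM after SF3B4 siRNA and 6.95 ± 0.592 FPKM in controls, did not pass, and neither did KRT15, at 2.55 ± 0.114 FPKM after SF3B4 siRNA and 2.96 ± 0.0351 FPKM in controls.

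The gastric and hepatocyte-type genes that some NKX2-1-negative lung adenocarcinomas express were not seen at a testable level: 0 of 20 met the filter, and 15 stayed below 0.1 FPKM everywhere. The highest was LGALS4, a galectin, at 0.369, 0.591 and 0.409 FPKM after SF3B4 siRNA and at 0.171, 0.226 and 0.0858 FPKM in controls. Of 12 aquaporins only AQP3 was tested, at 3.12 ± 0.171 FPKM after SF3B4 siRNA and 2.65 ± 0.505 FPKM in controls, a log2 fold change of 0.24 that did not pass (limma adjusted p = 0.24). CD14, listed as an immune marker, rose, with 6.59, 5.57 and 4.7 FPKM after SF3B4 siRNA against 2.46, 2.45 and 2.87 FPKM in controls (log2 fold change 1.08, limma adjusted p = 0.0013), while PTPRC was at 0 in all 6 libraries.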
